A study of Mus musculus with 18 samples.

Results

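The 10 genes described here encode proteins by which liver makes, releases, stores and mobilises glucose, together with 1 transcriptional coactivator of the pathway. They were found by gene symbol in GEO's annotation of the array, using only probe sets that name a single gene, and all 10 were present among the 18193 genes measured. They comprised 5 glucose output genes (Pcx, Pck1, Fbp1, G6pc and Slc37a4), 3 glycogen storage genes (Ugp2, Gys2 and Gbe1), the glycogen breakdown gene Pygl and the coactivator gene Ppargc1a. Transcript levels were read on 18 Affymetrix MG 430 2.0 arrays of CD-1 mice, an outbred laboratory stock. Adult samples were normal liver from females aged 10 weeks, on 2 arrays, although 1 label field of these samples describes partial hepatectomy. Embryonic liver was sampled each day from 10.5 to 14.5 days post conception (dpc), then at 16.5 dpc, with 2 arrays a stage. The rest of the embryo, that is the embryo without its liver, had 1 array at each of these stages except 13.5 and 16.5 dpc. Each embryonic sample pooled at least 5 embryos. The labels name no transgene or targeted allele, and the sources used here do not give the feeding state of adults or dams.

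Gluconeogenesis runs pyruvate back to glucose through 4 steps that glycolysis does not share. Pyruvate carboxylase (Pcx) makes oxaloacetate, phosphoenolpyruvate carboxykinase (Pck1) turns that into phosphoenolpyruvate, fructose-1,6-bisphosphatase (Fbp1) removes a phosphate, and glucose-6-phosphatase (G6pc) frees glucose inside the endoplasmic reticulum, fed by the glucose-6-phosphate transporter Slc37a4. Glycogen is built from UDP-glucose, made by Ugp2, which glycogen synthase (Gys2) joins into chains and the branching enzyme (Gbe1) branches, and the phosphorylase Pygl breaks it down. Liver is known for storing glycogen late in gestation and for starting gluconeogenesis around birth, when the supply of glucose across the placenta ends.

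All values below are probe set intensities on a linear scale. Readings below 24.8 (the floor, set at the 20th percentile) were raised to that value before log2 was taken. A difference was called at an adjusted p under 0.05 (limma with Benjamini-Hochberg adjustment over all genes) and at least 1 log2, a 2-fold change. Alb was higher in liver than in the rest of the embryo at each stage with both tissues, although the ranges over stages overlapped. Alb read 7464 to 8205 in adult liver, 956 to 8941 in embryonic liver and 105 to 1220 in the rest of the embryo. The fetal gene Afp read at most 13.4 in adult liver, against 4525 to 6574 in embryonic liver and 141 to 2672 in the rest of the embryo. Not every hepatocyte marker set the tissues apart, since Ttr averaged 7545 in adult liver and read 7550 in the rest of the embryo at 14.5 dpc. On both 10.5 dpc liver arrays, 7 heart markers summed to 11964 to 18509, against 13548 to 22710 in the rest of the embryo and 1012 to 1027 in 16.5 dpc liver. They summed to 3086 and 9175 at 12.5 dpc, against 313 and 333 at 11.5 dpc. Of the 2 adult arrays, replicate 2 read 1.59 times as high as replicate 1 in the median over 648 strongly expressed genes (above an intensity of 1000), but 0.937 times as high over all genes tested. Titles call the replicates biological without saying which animals or litters they came from. The p-values within liver rest on the spread inside such pairs, pooled over all liver groups and moderated across genes by limma. In the tissue comparisons, departures of single stages from the fitted model also enter that spread.

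The plot of all members by array shows 3 courses in liver. G6pc, Pck1 and Fbp1 were low through the embryonic stages and high in the adult. Slc37a4, Pcx and Pygl climbed across the embryonic stages and read highest in the adult, and Gys2 readings overlapped those of the adult from 12.5 dpc on. Ugp2, Gbe1 and Ppargc1a followed none of these.

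**Figure D1:**
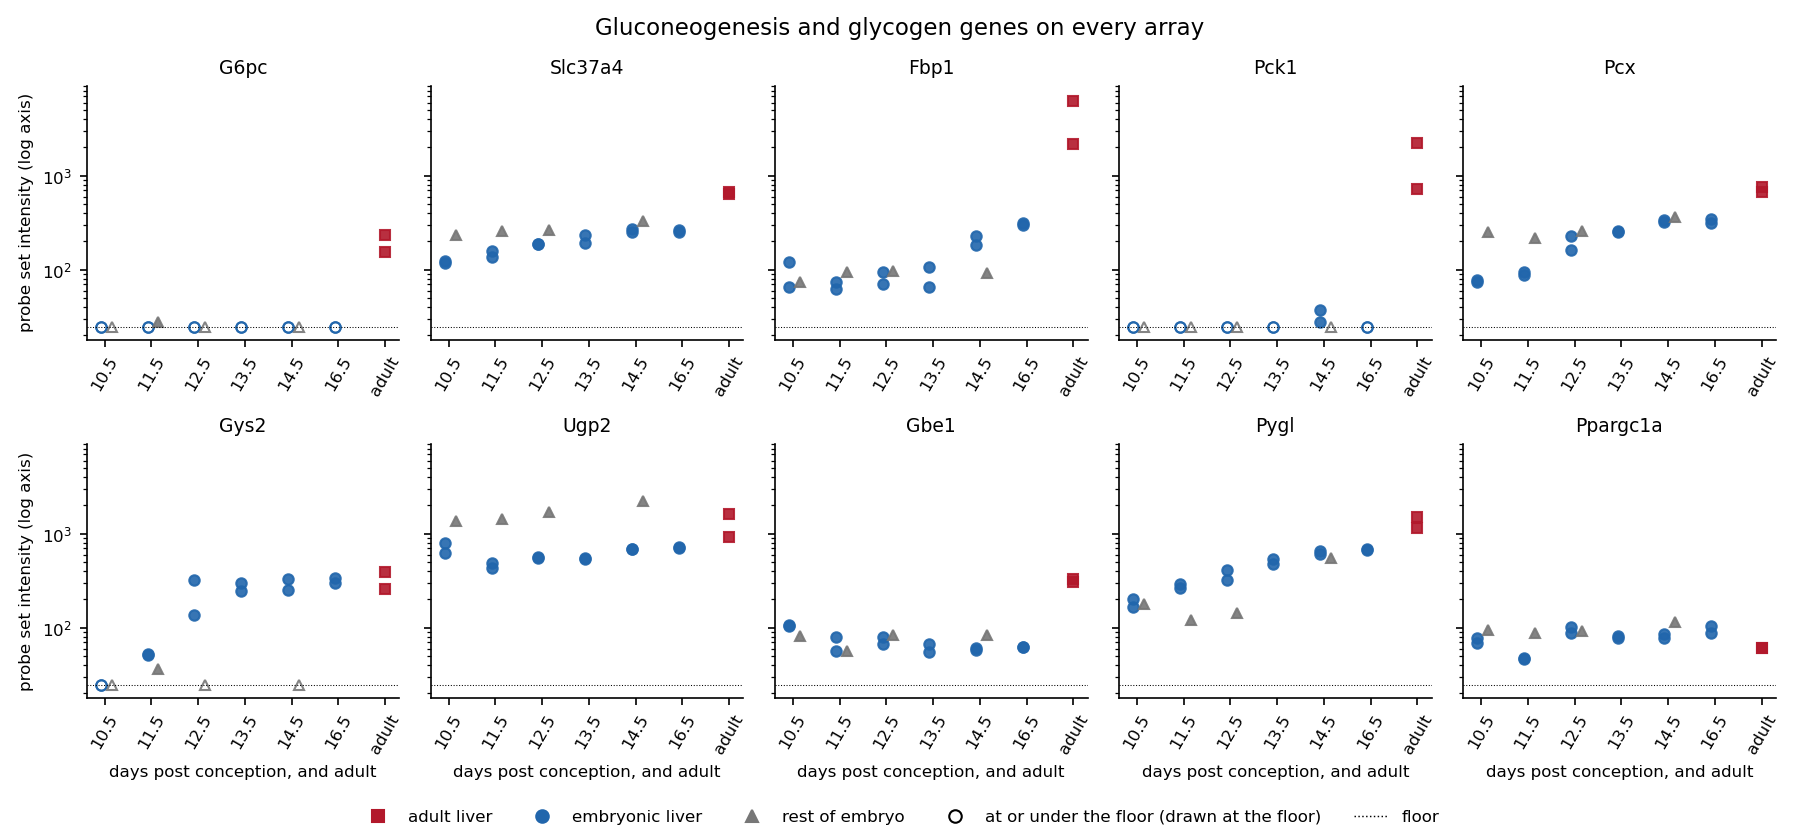
Intensity of the representative probe set of each member (log axis) on every array, by days post conception, with adult liver (red squares), embryonic liver (blue circles) and the rest of the embryo (gray triangles). Open symbols lie at or under the floor of 24.8. G6pc lay under the floor on all 12 embryonic liver arrays and Gys2 on both arrays of 10.5 dpc.

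The promoters of 4 members are shown. G6pc, Pck1 and Fbp1 are output genes with wide gaps between adult and 16.5 dpc liver, and Pygl is the breakdown gene, which climbed across the embryonic stages. The letters are the 250 bases before the annotated start, 5′ to 3′, from RefSeq on build GRCm38.p6, whose promoter table held 9 of the 10 members, all but Gys2. They lie at chr11:101367466-101367715 on the plus strand for G6pc, chr2:173152823-173153072 on the plus strand for Pck1, chr13:62888283-62888532 on the minus strand for Fbp1 and chr12:70227684-70227933 on the minus strand for Pygl. Capitals mark matches, on either strand, to a cAMP response half-site (TGACG), a nuclear receptor half-site (AGGTCA), a forkhead core (TGTTT), an HNF1 half-site (GTTAAT) and a TATA box (TATAAA).
G6pc: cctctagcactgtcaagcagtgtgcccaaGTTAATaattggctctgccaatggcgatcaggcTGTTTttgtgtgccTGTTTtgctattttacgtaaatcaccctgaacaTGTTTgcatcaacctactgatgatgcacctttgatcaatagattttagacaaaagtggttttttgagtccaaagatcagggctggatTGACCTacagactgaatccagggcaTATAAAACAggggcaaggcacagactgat
Pck1: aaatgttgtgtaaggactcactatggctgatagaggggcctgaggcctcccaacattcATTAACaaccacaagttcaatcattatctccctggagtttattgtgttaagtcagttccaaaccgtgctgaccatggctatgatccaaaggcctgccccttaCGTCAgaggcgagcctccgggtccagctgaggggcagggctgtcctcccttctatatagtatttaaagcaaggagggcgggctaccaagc
Fbp1: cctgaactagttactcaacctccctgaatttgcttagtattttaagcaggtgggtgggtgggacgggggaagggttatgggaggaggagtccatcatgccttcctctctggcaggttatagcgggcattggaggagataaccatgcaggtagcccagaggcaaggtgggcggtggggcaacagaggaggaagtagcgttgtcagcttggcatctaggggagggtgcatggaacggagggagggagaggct
Pygl: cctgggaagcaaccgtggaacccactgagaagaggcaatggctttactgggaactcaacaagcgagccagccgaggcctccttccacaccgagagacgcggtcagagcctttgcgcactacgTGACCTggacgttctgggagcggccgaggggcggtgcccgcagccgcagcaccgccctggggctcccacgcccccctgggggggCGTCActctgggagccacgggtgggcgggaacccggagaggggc

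The G6pc window held a TATA box at 29 to 24 bases before the start, a nuclear receptor half-site at 54 to 49, an HNF1 half-site at 221 to 216 and 4 forkhead cores, 1 of which overlaps the TATA box. The Pck1 window held a cAMP response half-site at 90 to 86 bases before the start and an HNF1 half-site at 192 to 187. In the rat Pck1 promoter a cAMP response element is known to carry the response to glucagon. Pygl held a cAMP response half-site at 44 to 40 bases and a nuclear receptor half-site at 128 to 123, and none of the 5 motifs was found in the Fbp1 window. Of 32851 mouse promoter windows of this length, 5836 (17.8%) held the cAMP response half-site, 4607 the nuclear receptor half-site, 15244 (46.4%) the forkhead core, 2113 (6.4%) the HNF1 half-site and 4063 (12.4%) the TATA box. These matches are a description of the letters, with no binding measured.

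The first comparison asked which of these genes differed between adult liver and the last embryonic stage sampled. All 5 glucose output genes were higher in adult liver than in 16.5 dpc liver, by 1.10 to 5.67 log2. Of the 3 glycogen storage genes, Gbe1 alone was called higher. In all, 6 of the 10 members were called higher and 0 lower, where 10.3% of the 14125 genes tested were called higher and 22.8% lower. G6pc and Pck1 passed the filter on low values only through the 2 adult arrays, so the direction of their difference was fixed by the filter and they are given below without a p-value. Of the other 8 members, 4 were called higher (Fbp1, Slc37a4, Pcx and Gbe1), where the median of all genes tested was -0.24 log2. G6pc and Pck1 were not tested when either adult array was left out. The count was then 4 without adult replicate 2, and 6 without adult replicate 1, where Ugp2 and Pygl were called in their place. In whole liver, fewer cells of a type and less RNA per cell cannot be told apart.

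G6pc, the enzyme that releases free glucose, read 236 and 152 in adult liver, and between -49.5 and 2.94 on the 12 embryonic liver arrays. Every embryonic array lay under the floor, and the adult arrays stood well apart from them. The difference between adult and 16.5 dpc liver was at least 7.64-fold (2.93 log2). With the floor at the 10th or 40th percentile the bound was 3.87 or 1.79 log2.

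Pck1, the enzyme usually taken as the control point of hepatic gluconeogenesis, read 719 and 2222 in adult liver, against 19.7 and 12.8 in 16.5 dpc liver. Only the 14.5 dpc arrays, at 37.3 and 27.8, exceeded the floor among the 12 embryonic liver arrays, whose lowest value was 6.89. Adult liver was at least 50.9-fold higher than 16.5 dpc liver (5.67 log2). The other Pck1 probe sets gave 4.06 log2, with adult readings of 316 and 553, and 0.59 log2, with adult readings of 35.6 and 39.1. The bound ran from 3.44 log2 with probe sets averaged to 6.30 log2 under the lower floor (10th percentile).

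Fbp1, the bisphosphatase, read 2153 and 6235 in adult liver, against 314 and 300 in 16.5 dpc liver. Replicate 2 was the higher adult array, as it was for strongly expressed genes, and both adult readings lay far above every embryonic one. The difference was 11.9-fold (3.58 log2, SE 0.45, limma adjusted p = 4.87e-05), and it was 4.34 log2 without adult replicate 1 and 2.81 log2 without adult replicate 2.

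Slc37a4, which carries glucose-6-phosphate to the phosphatase, read 666 and 631 in adult liver, against 254 and 263 in 16.5 dpc liver, and rose 2.51-fold (1.33 log2, SE 0.13, limma adjusted p = 6.72e-06). Pcx, the mitochondrial entry step, read 754 and 665 in adult liver, against 349 and 314 in 16.5 dpc liver, and rose 2.14-fold (1.10 log2, SE 0.16, limma adjusted p = 0.000158). Adult readings of both genes lay above every embryonic liver reading. Both gaps were far smaller than those of Fbp1 and Pck1.

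Gys2, the liver glycogen synthase, read 260 and 389 in adult liver, against 337 and 300 in 16.5 dpc liver. The 2 groups overlapped, and the difference was 0.00 log2 with a 95% interval from -0.76 to 0.76, so a change smaller than about that size was not detectable with 2 arrays a group. Gbe1, the branching enzyme, read 309 and 326 in adult liver, against 63.0 and 61.9 in 16.5 dpc liver. It rose 5.09-fold (2.35 log2, SE 0.19, limma adjusted p = 1.6e-06) and did not overlap any embryonic reading.

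Ugp2, which makes UDP-glucose, read 920 and 1628 in adult liver, against 701 and 729 in 16.5 dpc liver, a difference of 0.78 log2 (SE 0.22, limma adjusted p = 0.0112) that stayed under 1 log2. The other 4 Ugp2 probe sets gave 1.22 to 1.39 log2, and the mean over probe sets (1.19 log2) and quantile normalization (1.27 log2) put it past the threshold. Pygl, the liver phosphorylase, read 1141 and 1498 in adult liver, against 694 and 672 in 16.5 dpc liver, a difference of 0.94 log2 (SE 0.17, limma adjusted p = 0.000843), which became 1.53 log2 and was called under quantile normalization. Both genes were also called without adult replicate 1, at 1.19 log2 for Ugp2 and 1.13 log2 for Pygl. Ppargc1a, the coactivator of gluconeogenic transcription in fasting, read 60.2 and 61.1 in adult liver, against 105 and 88.3 in 16.5 dpc liver, a difference of -0.67 log2 (SE 0.16, limma adjusted p = 0.00395) that was not called. Its other probe sets did not show this fall, with differences from -0.02 to 0.77 log2.

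Hepatocyte and blood cell markers moved over the same interval. Of 8 hepatocyte markers tested, 3 were higher in adult than in 16.5 dpc liver and 0 lower, with a median of 0.84 log2, and their sum was 49799 to 55179 in adult liver, against 36299 to 36791 at 16.5 dpc. Red cell markers summed to 414 to 452 in adult liver, against 17878 to 18117 at 16.5 dpc. The part of these shifts in the differences above was not tested. Another scaling moved the background of this comparison, since 31.2% of called genes were higher in adult liver as deposited and 43.1% after quantile normalization, with 6 and 8 members called higher.

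**Figure D2:**
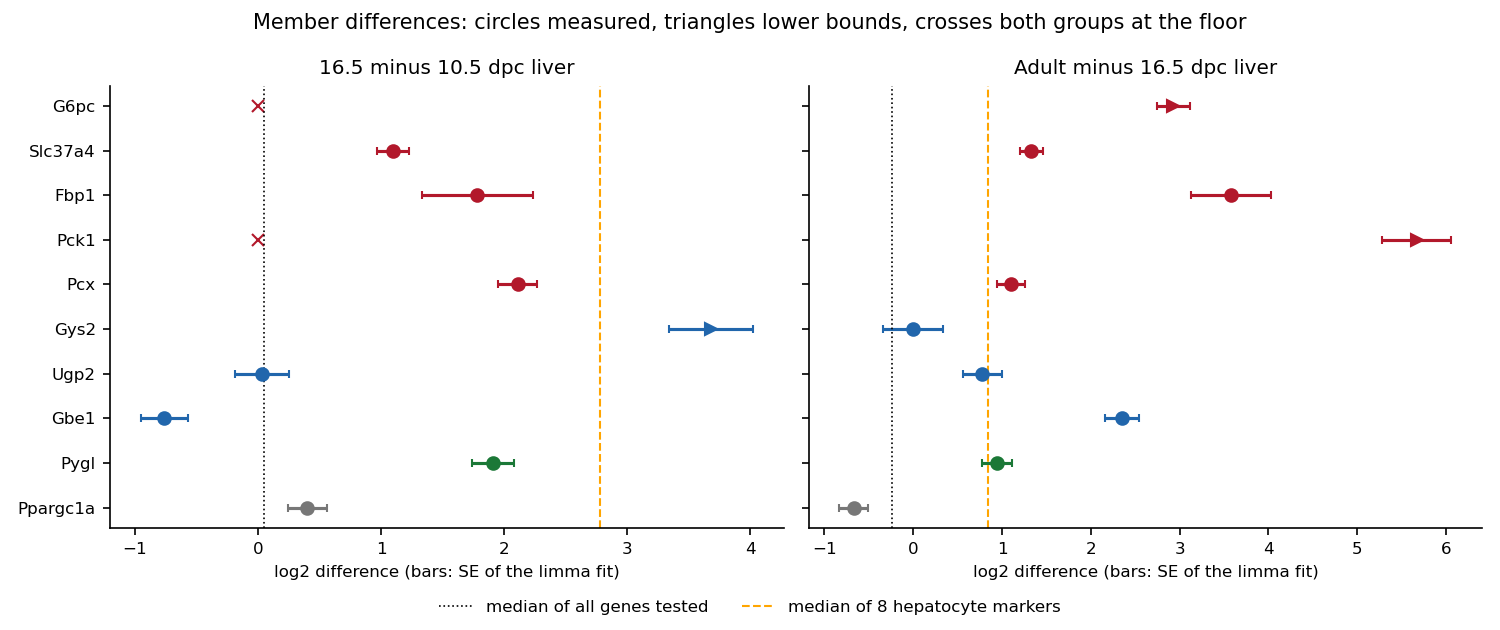
Log2 difference of each member for 16.5 minus 10.5 dpc liver (left) and adult minus 16.5 dpc liver (right), with the SE of the limma fit (n = 2 arrays a group). Red marks glucose output genes, blue glycogen storage genes, green Pygl and gray Ppargc1a, and dotted and dashed lines give the medians of all genes tested and of 8 hepatocyte markers. On the right the 5 red symbols lie between 1.10 and 5.67, and the blue ones at 0.00 (Gys2), 0.78 (Ugp2) and 2.35 (Gbe1).

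The second comparison followed the genes inside the embryonic liver, between 10.5 and 16.5 dpc. Gys2 rose most, at least 12.8-fold, and Pcx, Pygl, Fbp1 and Slc37a4 rose 2.14- to 4.32-fold. Thus 3 of 5 glucose output genes, 1 of 3 storage genes and Pygl were called higher, 5 of 10 members in all, and 0 were called lower. Among all 14125 genes tested, 10.4% were called higher and 6.98% lower. The median was 1.10 log2 over glucose output genes and 0.03 log2 over storage genes, against 0.05 log2 over all genes tested. G6pc and Pck1 lay at the floor at both stages. A test across the 6 embryonic stages (moderated F of limma, with a range of stage means of at least 1 log2) called 6 of 10 members, the same 5 and Ppargc1a, where 19.6% of all genes were called. Fbp1 dropped out of it, on its adjusted p, without 16.5 dpc replicate 1 (a range of 2.15 log2) or replicate 2 (2.21 log2). Ppargc1a dropped out after median centring or quantile normalization (a range of 0.95 log2 under each). It also did so with the floor at the 40th percentile (0.81 log2) and with probe sets averaged (0.55 log2).

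Gys2 read 14.6 and 19.5 (10.5 dpc), 53.1 and 50.7 (11.5 dpc), 322 and 135.3 (12.5 dpc), 243 and 303 (13.5 dpc), 330 and 254 (14.5 dpc), and 337 and 300 (16.5 dpc). It lay under the floor at the first stage and within the range of the adult arrays from 13.5 dpc on, apart from single readings below it. The difference between 16.5 and 10.5 dpc was at least 12.8-fold (3.68 log2, SE 0.34, limma adjusted p = 1.4e-05), and with the floor at the 10th or 40th percentile the bound was 4.23 or 2.54 log2. As a share of the adult mean, Gys2 stood at 5.26%, 16.0%, 70.5%, 84.2%, 90.0% and 98.2% over the 6 stages.

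Pcx read 78.4 and 74.7 (10.5 dpc), 87.1 and 94.5 (11.5 dpc), 227 and 162 (12.5 dpc), 254 and 259 (13.5 dpc), 320 and 342 (14.5 dpc), and 349 and 314 (16.5 dpc). It rose 4.32-fold over the series (2.11 log2, SE 0.16, limma adjusted p = 3.84e-06) and levelled at 46.7% of the adult mean. Among the array's 4 control probe sets for Pcx, which were left out of the fits, the 3′ set read 280 and 243 at 16.5 dpc, against 59.1 and 56.7 at 10.5 dpc. The 5′ set read 87.7 and 53.7 at 16.5 dpc, against 34.0 and 31.5 at 10.5 dpc. The 2 middle sets did not follow this course, at 513 and 777 and at 491 and 495 at 16.5 dpc, against 1244 and 383 and 500.2 and 316 at 10.5 dpc.

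Pygl read 201 and 164 (10.5 dpc), 295 and 265 (11.5 dpc), 417 and 318 (12.5 dpc), 482 and 542 (13.5 dpc), 661 and 605 (14.5 dpc), and 694 and 672 (16.5 dpc). No stage overlapped the next up to 14.5 dpc. The rise was 3.75-fold (1.91 log2, SE 0.17, limma adjusted p = 1.24e-05), to 51.8% of the adult mean. The transcript of the breakdown gene Pygl thus climbed while that of the storage gene Gys2 did, as the plot of levels relative to the adult shows.

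Slc37a4 read 119 and 123 (10.5 dpc), 157 and 136 (11.5 dpc), 188 and 186 (12.5 dpc), 233 and 194 (13.5 dpc), 251 and 271 (14.5 dpc), and 254 and 263 (16.5 dpc). It rose 2.14-fold (1.10 log2, SE 0.13, limma adjusted p = 7.04e-05), close enough to the threshold that median centring and quantile normalization, both at 0.98 log2, left it uncalled. Fbp1 stayed between 62.1 and 122 up to 13.5 dpc and then read 184 and 227 at 14.5 dpc and 314 and 300 at 16.5 dpc. Its rise was 3.44-fold (1.78 log2, SE 0.45, limma adjusted p = 0.01), to 7.32% of the adult mean. The call was lost without 10.5 dpc replicate 2 (1.33 log2, adjusted p = 0.0685) and without 16.5 dpc replicate 1 (1.75 log2, adjusted p = 0.0503).

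The other 2 storage genes took a different course from Gys2. Ugp2 read 701 and 729 at 16.5 dpc, against 793 and 618 at 10.5 dpc, with its lowest readings, 431 and 484, at 11.5 dpc. The difference of 16.5 minus 10.5 dpc was 0.03 log2 with a 95% interval from -0.46 to 0.51. Gbe1 read 63.0 and 61.9 at 16.5 dpc, against 108 and 104 at 10.5 dpc, a difference of -0.76 log2 (SE 0.19, limma adjusted p = 0.0093) that did not reach 1 log2. From 11.5 to 16.5 dpc all Gbe1 readings lay between 55.3 and 80.6, while its adult readings were 309 and 326.

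**Figure D3:**
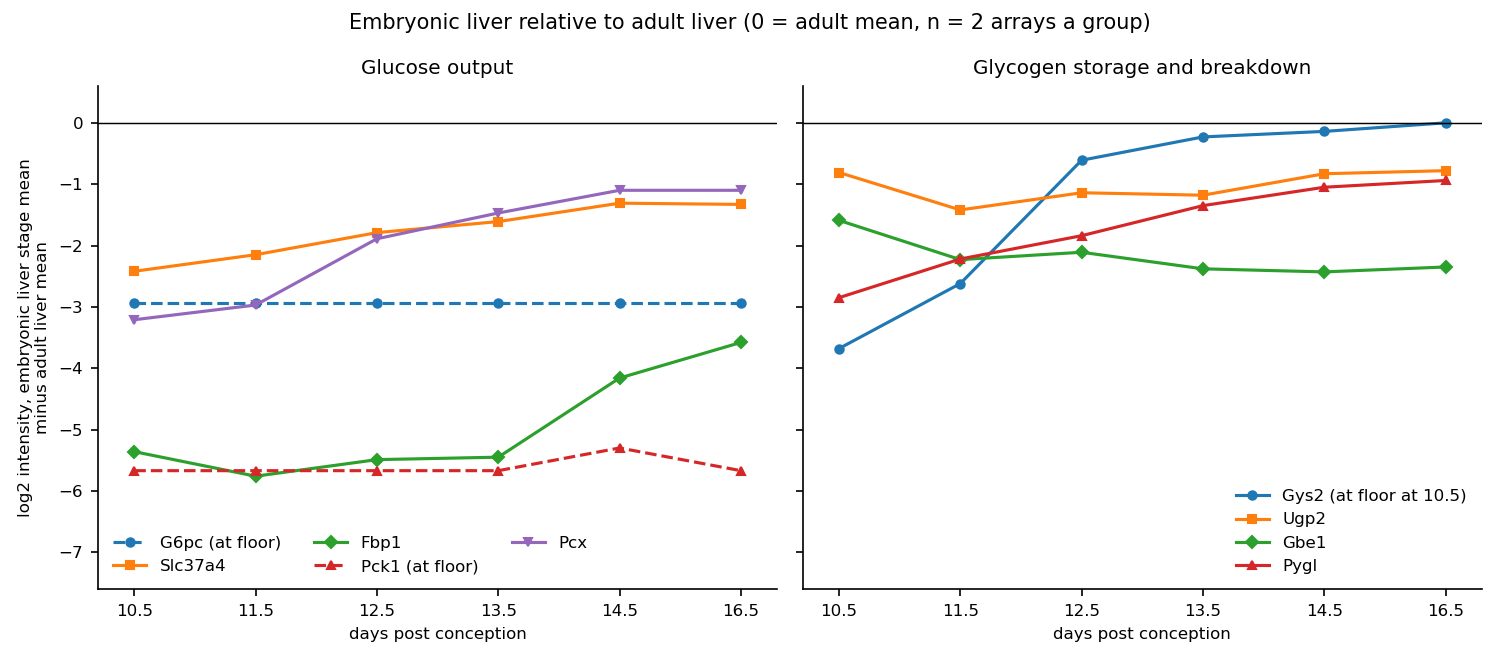
Mean log2 intensity of each embryonic liver stage minus that of adult liver, by days post conception, for glucose output genes (left) and glycogen genes (right), n = 2 arrays a group. Dashed lines are genes at the floor, whose true gap can be wider. At 16.5 dpc the storage genes lie at 0.00 (Gys2), -0.78 (Ugp2) and -2.35 (Gbe1). The output genes lie between -1.10 (Pcx) and -5.67 (Pck1), with Fbp1 at -3.58.

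Set against the adult mean, the members of each class took separate courses, and no test of storage against output genes was run. Among storage genes at 16.5 dpc, Gys2 stood at 98.2% of its adult mean, Ugp2 at 56.1% and Gbe1 at 19.6%. Among output genes, Pcx stood at 46.7%, Slc37a4 at 39.9% and Fbp1 at 7.32%, while G6pc and Pck1 were under the floor. At 10.5 dpc the same shares were 5.26% for Gys2, 55.4% for Ugp2, 33.3% for Gbe1, 10.8% for Pcx, 18.6% for Slc37a4 and 2.24% for Fbp1.

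Between successive stages, 3 members were called, all between 11.5 and 12.5 dpc, where 2.68% of genes were called higher. Gys2 rose by 2.01 log2 (SE 0.34, limma adjusted p = 0.00624), Pcx by 1.08 log2 (SE 0.16, adjusted p = 0.00278) and Ppargc1a by 1.02 log2 (SE 0.16, adjusted p = 0.00342). Each call was lost without 1 array, for Gys2 without 11.5 dpc replicate 2 (1.97 log2, adjusted p = 0.056), for Pcx without 12.5 dpc replicate 1 (0.83 log2) and for Ppargc1a without 12.5 dpc replicate 2 (0.90 log2). The Gys2 step was 1.38 log2 without 12.5 dpc replicate 1 and 2.63 log2 without 12.5 dpc replicate 2. At the same step 4 of 7 heart markers (median 3.70 log2) and 3 of 6 red cell markers were called higher, and their part in the members' steps was not tested. At the other 4 steps limma called 0 members, where 5.66%, 0.0850%, 0.0566% and 0.0354% of genes were called in order. An unadjusted p under 0.05 was reached there by 5, 2, 3 and 0 of the 10 members, and by 28.2%, 6.56%, 4.85% and 6.24% of all genes.

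Ppargc1a read 77.8 and 68.6 (10.5 dpc), 47.3 and 46.4 (11.5 dpc), 87.7 and 103 (12.5 dpc), 78.6 and 81.9 (13.5 dpc), 78.4 and 86.5 (14.5 dpc), and 105 and 88.3 (16.5 dpc). The 11.5 dpc readings were the lowest of the embryonic series. Its 5 probe sets disagreed, and averaging them left a step between 11.5 and 12.5 dpc of 0.55 log2 (limma adjusted p = 0.079). Median centring and quantile normalization put that step at 0.95 log2, uncalled. The difference between 16.5 and 10.5 dpc was 0.40 log2 (SE 0.16, limma adjusted p = 0.0729).

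All 8 hepatocyte markers tested were called higher at 16.5 than at 10.5 dpc, with a median of 2.78 log2, a larger shift than that of any member except Gys2. Their summed level was 36299 to 36791 at 16.5 dpc, against 6468 to 6731 at 10.5 dpc. The 7 heart markers were all lower at 16.5 dpc, with the sums given above. The signal of Gapdh's 3′ over its 5′ control set, a sign of RNA quality, was 2.82 on 10.5 dpc replicate 1 and 0.744 to 0.886 on the other liver arrays. The part of these values in the members' rises was not tested.

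The third comparison set embryonic liver against the rest of the embryo at the 4 matched stages. The 2 tissues came in different value forms, with 1216 to 1535 negative values on each liver array and none on the rest-of-embryo arrays, whose medians were also higher (91.9 to 107, against 69.7 to 79.5). Of 14895 genes, 65.1% were called, and 51.2% were called lower in liver. The median gene stood at -1.04 log2 as deposited, -0.64 log2 after median centring and -0.14 log2 after quantile normalization. The share of calls that were higher in liver was 21.4%, 32.1% and 49.1%, so each value is read against that median. Hepatocyte markers were called higher in liver in 6 of 8 cases (median 3.80 log2), and all 7 skeletal muscle markers were called lower (median -3.26 log2). Only 4 of these 7 muscle markers were bright enough for the fit of liver arrays. The others passed the filter here only with the help of rest-of-embryo arrays, and the hepatocyte markers Fga and Fgb only through liver arrays. The direction of such markers was thus set at least in part by the filter. Of 8 members tested, Gys2 was called higher and Ugp2 lower, while G6pc and Pck1 were too dim for the test, at 8.80 to 27.6 and 6.93 to 19.1 in the rest of the embryo.

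Gys2 read 14.6 to 330 on the 8 liver arrays of these stages, against 20.5, 36.7, 22.5 and 24.3 in the rest of the embryo. Liver exceeded the rest of the embryo from 11.5 dpc on, by 0.50 log2 at 11.5 dpc and by at least 3.07 and 3.54 log2 at the last 2 stages, where the rest of the embryo lay under the floor, as both tissues did at 10.5 dpc. Over the stages the difference was 1.78 log2 (SE 0.53), and the call was lost without the 12.5 dpc array of the rest of the embryo (1.35 log2). Gys2 passed the filter of this comparison only through liver arrays, so its direction was fixed by the filter.

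Ugp2 read 431 to 793 on the liver arrays, against 1361, 1427, 1720 and 2233 in the rest of the embryo, and every liver array lay below its stage partner. The difference was -1.48 log2 (SE 0.12, limma adjusted p = 7.98e-07), but it was -0.25 log2 (adjusted p = 0.0725) after quantile normalization. Pygl was 0.69 log2 higher in liver and not called as deposited (SE 0.21, adjusted p = 0.0105), yet was called after median centring (1.08 log2) and quantile normalization (1.48 log2). Its rest-of-embryo readings were 177, 122, 145 and 556, the last close to the liver readings of 661 and 605 at that stage.

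Pcx read 249, 215, 257 and 366 in the rest of the embryo, and liver was below it at each stage. The difference of -0.88 log2 (SE 0.23, limma adjusted p = 0.00378) was not called and lay above the all-gene median. It was called without the 12.5 dpc (-1.03 log2) or the 14.5 dpc array (-1.12 log2) of the rest of the embryo, and was -0.12 log2 after quantile normalization. The 2 middle control sets of Pcx ran the other way, at 316 to 1244 on liver arrays against 30.4 to 107 in the rest of the embryo. Slc37a4 read 231, 258, 267 and 332 there, and the difference of -0.65 log2 as deposited became 0.14 log2 after quantile normalization. Fbp1 read 73.3 to 96.2 in the rest of the embryo at every stage and was 0.18 log2 higher in liver over all, with 184 and 227 in liver against 91.4 at 14.5 dpc. Gbe1 differed by -0.01 log2 and Ppargc1a by -0.44 log2, neither called, while 2 other Ppargc1a probe sets gave -1.57 and -1.45 log2.

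**Figure D4:**
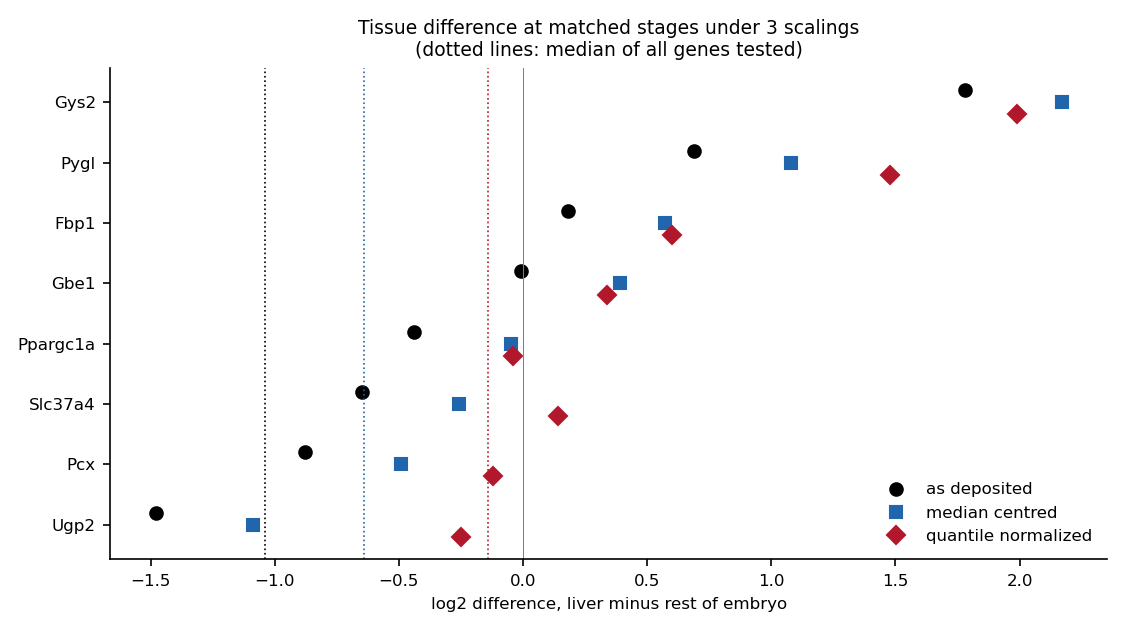
Log2 difference of liver minus the rest of the embryo over 4 matched stages (8 and 4 arrays) for the 8 members tested, as deposited, after median centring and after quantile normalization. Dotted lines give the median of all genes tested under each, at -1.04, -0.64 and -0.14. Gys2 lies to the right of the medians under all 3 scalings, while Ugp2 lies left of them.

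The tissue difference moved toward liver with stage for 2 of the 8 members, where 5.09% of genes were called in that direction. The move was 0.96 log2 per day for Gys2 and 0.40 log2 per day for Pcx (limma adjusted p = 0.0243). Gys2 passed the filter here only through liver arrays of 12.5 and 14.5 dpc. The direction of its slope was thus fixed by the filter, and it is given without a p-value. Neither call held without the 10.5 dpc or the 14.5 dpc array of the rest of the embryo, and that of Pcx was also lost without 14.5 dpc liver replicate 2 (adjusted p = 0.0516). For Pcx the liver readings approached those of the other tissues, with differences of -1.70, -1.25, -0.42 and -0.15 log2 over the 4 stages in order.

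Several members have relatives with the same kind of activity in other tissues or compartments, and 7 of these were measured. G6pc3, the widely expressed glucose-6-phosphatase, read 364 and 351 at 16.5 dpc, against 79.0 and 75.9 at 10.5 dpc, and rose 2.21 log2 (SE 0.17, limma adjusted p = 4.04e-06). It thus rose over the stages at which G6pc stayed under the floor, and read 167 and 249 in adult liver. Pck2, the mitochondrial carboxykinase, also rose, by 1.22 log2 between 10.5 and 16.5 dpc (SE 0.24, adjusted p = 0.00261), with 276 and 240 at 16.5 dpc against 108 and 113 at 10.5 dpc. In adult liver Pck2 read 55.8 and 104 and was 1.76 log2 lower than at 16.5 dpc (log2 difference -1.76, SE 0.24, adjusted p = 0.000104), opposite to Pck1. The direction of Pck1 was fixed by the filter, as said above, so this contrast of the 2 carboxykinase genes is a description only.

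Among the other isozymes, none was called in liver between 16.5 and 10.5 dpc or between adult and 16.5 dpc as deposited, with values from -0.82 to 0.95 log2. Fbp2, the muscle bisphosphatase, reached 1.01 log2 between adult and 16.5 dpc liver after median centring and was called there. Against the rest of the embryo, the muscle phosphorylase Pygm was 2.45 log2 higher in liver (SE 0.36, limma adjusted p = 6.84e-05), with 590 to 866 on the 12 embryonic liver arrays, against 73.0, 61.4, 116 and 473 in the rest of the embryo. Skeletal muscle markers summed to 226 to 1255 in liver, against 2529 to 32328 in the rest of the embryo. G6pc3 was 1.14 log2 higher in liver (adjusted p = 0.00303). The brain phosphorylase Pygb (-1.43 log2) and Pck2 (-1.09 log2) were called lower in liver as deposited, but stood at -0.30 and -0.23 log2 after quantile normalization, uncalled. Gys1, the muscle glycogen synthase, differed by 0.12 log2 on its representative probe set and by -3.69 log2 on another, so its tissue difference depends on the probe set.

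**Figure D5:**
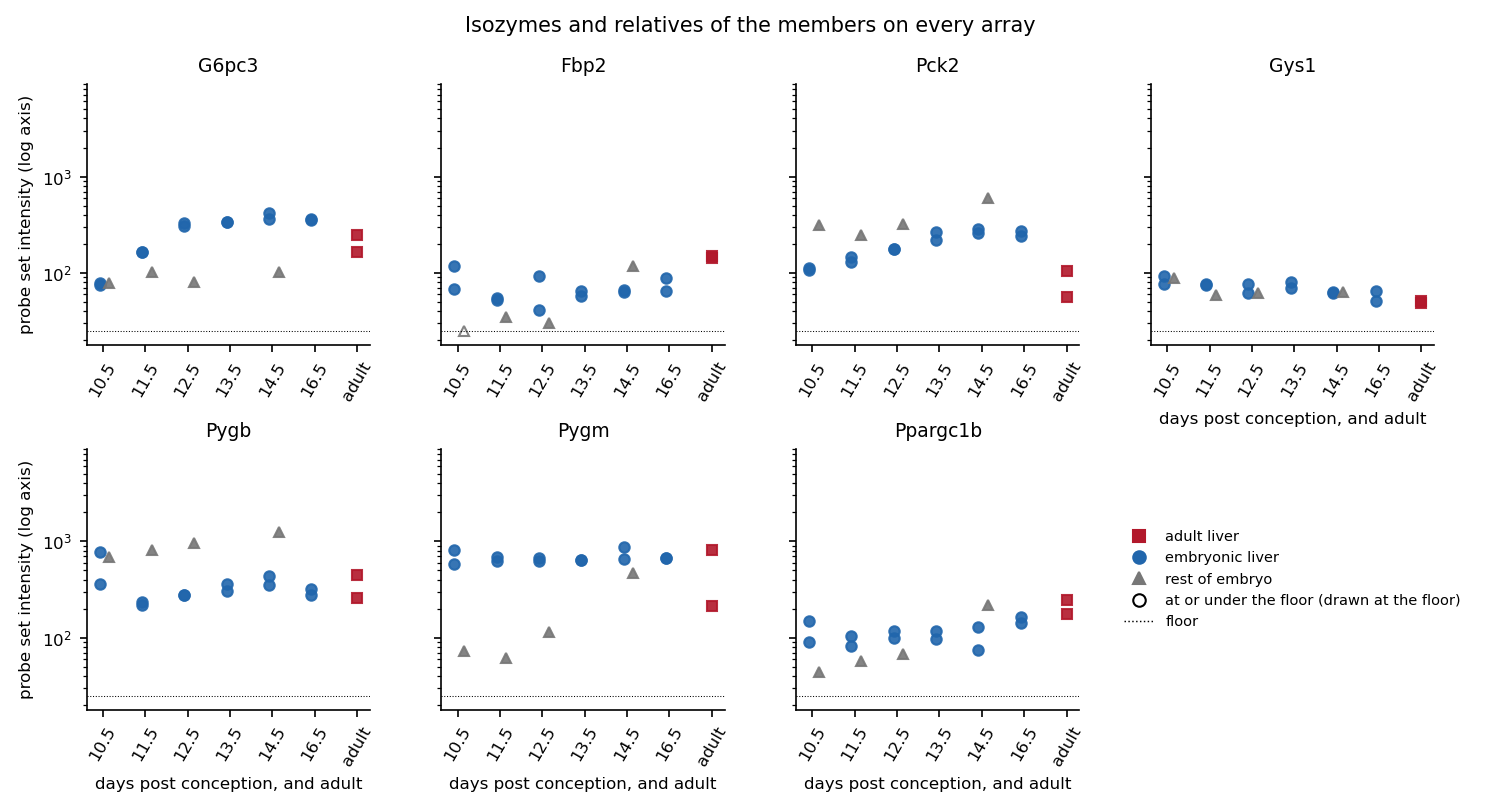
Intensity (log axis) of 7 isozymes and relatives of the members on every array, by days post conception, with symbols for adult liver, embryonic liver and the rest of the embryo. G6pc3 and Pck2 climb through the embryonic liver stages, and Pck2 reads 55.8 and 104 in adult liver, below its 10.5 to 16.5 dpc readings of 108 to 283.

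Of 13 other glycogen genes tested in liver, 1 was called higher and 2 lower at 16.5 than at 10.5 dpc, where 10.4% and 6.98% of all genes were. Gyg, the glycogenin that primes glycogen chains, averaged 372 ± 20.8 at 16.5 dpc, against 1834 ± 555 at 10.5 dpc, and fell by 2.27 log2 (SD, n = 2 each, limma adjusted p = 5.69e-05). Gsk3b, a kinase that inhibits glycogen synthase, fell by 1.11 log2 (adjusted p = 4.11e-05), and Epm2a, the laforin phosphatase, rose by 1.06 log2 (adjusted p = 0.0093), a call lost after median centring (0.94 log2). Gyg averaged 475 ± 55.7 at 11.5 dpc, 744 ± 292 at 12.5 dpc and 315 ± 29.4 at 13.5 dpc (SD, n = 2 each). It was thus high at the stages where the heart marker sums were high, and the part of heart tissue in its values was not tested.

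Between adult and 16.5 dpc liver, 2 of the 13 glycogen genes were called higher and 4 lower, where 10.3% and 22.8% of all genes were. Ppp1r3b, the hepatic subunit that directs protein phosphatase 1 to glycogen, averaged 576 ± 272 in adult liver, while both 16.5 dpc arrays lay under the floor, a difference of at least 21.9-fold (4.45 log2). Stbd1, a glycogen-binding protein, averaged 251 ± 8.54 in adult liver and 72.3 ± 10.2 at 16.5 dpc (SD, n = 2 each) and rose 1.80 log2 (adjusted p = 4.84e-05). Gyg fell further, to 141 ± 14.2 in adult liver (log2 difference -1.40, adjusted p = 0.000819). Ppp1r3b, like G6pc and Pck1, passed the filter only through the adult arrays, so its direction was fixed by the filter.

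Against the same shares of all genes, 2 of 11 other genes of the gluconeogenic route rose and 1 fell between 10.5 and 16.5 dpc, and 4 rose and 0 fell in adult against 16.5 dpc liver. The glucose transporter Slc2a2, through which hepatocytes release glucose, averaged 1077 ± 221 in adult liver, 361 ± 16.4 at 16.5 dpc and 74.6 ± 3.26 at 10.5 dpc (SD, n = 2 each). It was higher by 2.28 log2 at 16.5 than at 10.5 dpc (limma adjusted p = 2.26e-05). Gpd1, the glycerol-3-phosphate dehydrogenase, was 2.71 log2 higher at 16.5 than at 10.5 dpc and 1.80 log2 higher in adult than in 16.5 dpc liver (adjusted p = 7.8e-05 and 0.000677). The alanine aminotransferase Gpt rose by 2.91 log2 in adult against 16.5 dpc liver (adjusted p = 1.68e-06). The aspartate aminotransferase Got1 rose by 2.01 log2 there (adjusted p = 1.95e-06) after having fallen by 1.11 log2 within the embryo (adjusted p = 0.000389).

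Of 19 regulators and hormone targets of gluconeogenesis, 6 rose and 1 fell between 10.5 and 16.5 dpc (10.4% and 6.98% of all genes), and 8 rose and 2 fell in adult against 16.5 dpc liver (10.3% and 22.8% of all genes). Within the embryo the transcription factors Foxo3, Cebpa and Hnf4a rose by 1.96, 1.59 and 1.43 log2 (limma adjusted p = 5.2e-07, 3.09e-05 and 0.0014). Foxo3 then read 128 ± 11.7 in adult liver, against 848 ± 34.9 at 16.5 dpc (SD, n = 2 each), and was lower by 2.73 log2 (difference -2.73, adjusted p = 8.03e-09). The tyrosine aminotransferase Tat, a glucocorticoid target, averaged 1096 ± 3.66 in adult liver and lay under the floor at 16.5 dpc, at least 44.2-fold apart (5.46 log2). The nuclear receptor Nr0b2 was at least 7.77-fold higher in adult liver (2.96 log2), likewise against 2 arrays under the floor. Tat and Nr0b2 passed the filter only through the adult arrays, as did Onecut1 (221 ± 137 in adult liver, 33.0 ± 9.24 at 16.5 dpc). Their direction was thus fixed by the filter, and the count of 8 holds such genes.

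Against the rest of the embryo, 11 of 15 other glycogen genes were called lower in liver and 0 higher as deposited. After quantile normalization 6 were lower and 1 higher, so the split moved with scaling. Of all 14895 genes, 7622 (51.2%) were called lower and 2078 higher as deposited, and 2986 lower and 2885 higher after quantile normalization. Under all 3 scalings Ppp1r3b (-3.42 log2 as deposited), Gsk3b (-3.19) and the phosphorylase kinase subunit Phkb (-2.05) were called lower in liver. Beside the same counts of all genes, 1 of 11 other gluconeogenic genes was called higher and 6 lower as deposited. After quantile normalization 2 were higher and 1 lower. Slc2a2 was at least 2.77 log2 higher in liver, with 3 of 4 rest-of-embryo arrays at the floor, and Gpt was lower under all 3 scalings (-2.32 log2 as deposited). Mdh2, a malate dehydrogenase, stood at -1.56 log2 as deposited and at -0.44 log2, uncalled, after quantile normalization. Of 16 regulators, 4 were called higher and 6 lower as deposited, and 4 higher and 3 lower after quantile normalization, beside those same counts. Ppara and Hnf4a were higher in liver, by at least 3.96 and 3.47 log2, with 3 and 2 of 4 rest-of-embryo arrays at the floor, and the kinase gene Sik1 was lower (-3.44 log2), each under all 3 scalings. Ppara, Slc2a2, the glucagon receptor gene Gcgr and the glycogen gene Ppp1r3c passed the filter only through liver arrays. Ppp1r3b, Sik1 and the glycogen genes Nhlrc1, Ppp1r3d and Phka1 passed it only through arrays of the rest of the embryo. These directions were thus fixed by the filter, and the counts of glycogen genes, gluconeogenic genes and regulators called against the rest of the embryo hold such genes.

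Over the 12 embryonic liver arrays, the genes whose log2 levels correlated best with Gys2 were 1810013L24Rik, Slc2a2 and Acbd4, each with Pearson r = 0.99. All such arrays share the stage order, so a gene that rises by stage correlates with any other that does, and the value is a description. For Pck1 the best were Nlrc5, Gm16226 and Kynu, each with r = 0.96, which rests on the pair of 14.5 dpc arrays that exceeded the floor. G6pc did not vary above the floor on these arrays and has no such value.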

How the data were processed

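Trizol-extracted total RNA was turned into biotinylated cRNA for Affymetrix arrays, per the labels' protocols. The values are probe set intensities, which the authors deposited as 1 table on a linear scale. Their summarisation and scaling are not given in the sources used here, and the 14 liver and 4 rest-of-embryo arrays came in 2 value forms. Groups follow the source names. The age entries of later liver stages repeat the first stage, the titles of rest-of-embryo samples name liver, and the treatment text of the adults describes a hepatectomy while their other labels give normal baseline liver.

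Of 45101 probe sets, 34945 named 1 gene, 932 several and 9160 none, and 64 were controls. Where a gene had several probe sets, the one brightest on average (log2) stood for it. Intensities were raised to a floor of 24.8 (20th percentile) and taken to log2. A gene was tested when it exceeded 78 (50th percentile) on at least 2 arrays of a fit. Arrays at the floor add no spread, which makes the SE and adjusted p too small for genes there. Precision is limited by the few arrays and by signal over background.

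All fits used limma 3.58.1 (R 4.3.3) with lmFit and a trended eBayes, as two-sided tests with p adjusted by Benjamini-Hochberg over the genes tested. The 14 liver arrays entered 1 fit with 7 residual degrees of freedom. The tissues were compared over 12 arrays with stage as a factor, and the slope is the interaction of tissue with days, called at 0.25 log2 per day. The code was tested on simulated data. Alternatives covered the floor, the scaling, the filter, probe set averaging, a replicate block, the arrays fitted and each array left out. The replicate numbers were not treated as a pairing of the samples in the main fits. Over 21 pairs of groups, same-numbered arrays deviated together with r from -0.35 to 0.25 (median 0.02), and 5 pairs exceeded 0.1. These values cannot exclude a pairing, since the titles do not say which animals or litters the replicates came from.

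All members are named, with all 7 measured isozymes and, per comparison, up to 3 called genes of each pathway list with the largest difference. The members and gene lists were chosen with earlier results of these data known.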

Additional observations from a re-analysis of the deposited data

Results flagged for a closer look

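The difference between liver and the rest of the embryo changed with stage for 2 members, which is a difference between stages under the same contrast, tested by an interaction term (tissue by day). For Gys2 the change was 0.96 log2 per day, in a direction that was fixed by the filter, as said above. Both tissues lay at the floor at 10.5 dpc, and at 14.5 dpc liver read 330 and 254 against 24.3 in the rest of the embryo. For Pcx it was 0.40 log2 per day (limma adjusted p = 0.0243), with liver readings of 78.4 and 74.7 against 249 at 10.5 dpc, and of 320 and 342 against 366 at 14.5 dpc. With 1 rest-of-embryo array a stage, leaving out the 10.5 dpc array gave limma adjusted p = 0.156 for Pcx, and leaving out the 14.5 dpc array gave 0.289. The Gys2 slope was then 1.07 and 0.91 log2 per day, uncalled in both cases.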

How the results depend on the processing

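Over 28 alternatives, 18 of which leave out 1 array each, the number of members called stayed within 1.5 times its value, except for the tissue slope. Leaving out 1 array gave 4 to 5 members for 16.5 against 10.5 dpc, 4 to 6 for adult against 16.5 dpc (4 without adult replicate 2, where G6pc and Pck1 no longer passed the filter, and 6 without replicate 1, where Ugp2 and Pygl replaced them), 5 to 6 across stages, 2 to 3 between successive stages and 2 to 3 for liver against the rest of the embryo. For the tissue slope it gave 0 to 3, with 0 without the 10.5 or 14.5 dpc array of the rest of the embryo and 1 without 14.5 dpc liver replicate 2. Small differences changed sign. For 16.5 against 10.5 dpc, Ugp2 became -0.09 after median centring, -0.04 after quantile normalization and -0.11 with averaged probe sets (-0.15 to 0.21 log2 with 1 array left out), and Ppargc1a became -0.07 with averaged probe sets. Averaging gave Ppargc1a 0.03 log2 for adult against 16.5 dpc liver and -0.09 log2 per day for the tissue slope (-0.02 to 0.13 with 1 array left out). For liver against the rest of the embryo, median centring and quantile normalization gave Gbe1 0.39 and 0.34 log2 (-0.14 to 0.15 with 1 array left out), and quantile normalization gave Slc37a4 0.14 log2, while Fbp1 ran from -0.15 to 0.40 with 1 array left out. The Pygl slope became 0.01 and 0.11 log2 per day under these scalings (-0.33 to 0.58 with 1 array left out). Without 10.5 dpc liver replicate 1, the slope of Fbp1 was called (0.40 log2 per day). The cause was not tested. Over all genes, quantile normalization gave 5871 tissue calls in place of 9700. Without the 10.5 and 12.5 dpc arrays, where 16.5 was set against 11.5 dpc, there were 1221 calls in place of 2457, 1278 in place of 2772 across stages and 759 in place of 1241 between stages. Slc37a4 was then at 0.82 log2 and uncalled, and Ppargc1a at 1.04 log2 and called. Leaving out 10.5 dpc liver replicate 2 gave 2179 calls between stages, and for the slope 1370 and 44 genes remained in place of 2091 without the 10.5 and the 14.5 dpc rest-of-embryo array. Against the mean of the 6 embryonic stages, adult liver was also called higher for Gys2 (1.21 log2), Ugp2 (1.02) and Pygl (1.71).

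The replicate block gave 5 members for 16.5 against 10.5 dpc, 6 for adult against 16.5 dpc, 6 across stages and 3 between stages, and changed no call of a member. No paired analysis was possible for the tissue comparison because the rest of the embryo has 1 array a stage.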
